A study of Mus musculus with 21 samples.

Results

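Acta2, Actg2, Tagln, Cnn1, Lmod1, Myl9, Mylk and Myh11 encode the contractile apparatus that smooth muscle cells carry and that myofibroblasts, the contractile fibroblasts of healing and scarred tissue, build in part. They were taken by symbol, as 8 of the 52636 rows of a table of raw counts from mouse lung fibroblasts. All 8 had enough counts to be tested over all libraries together, but Myh11 did not with some pairs of groups alone. In this apparatus actin filaments are pulled by myosin. Calcium-bound calmodulin activates myosin light chain kinase, the kinase phosphorylates the regulatory light chain, and the myosin head can then move along actin. Most genes of this group carry binding sites for serum response factor (SRF), which works with myocardin or with the myocardin-related factors, and TGFb1 is the best-known inducer of smooth muscle actin in fibroblasts.

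The cells were fibroblasts bearing Ly6C and Sca-1, surface proteins of a mouse lung fibroblast population, and their total RNA was sequenced with a strand-keeping kit. The groups were TGFb1 + IL1b, TGFb1 + TNF, TGFb1 + CHIR, TGFb1 + DMSO, TGFb1, CHIR and DMSO, each with 3 libraries, 21 in all. IL1b and TNF are inflammatory cytokines, DMSO is a solvent, and CHIR is a short name that commonly stands for an inhibitor of the kinase GSK3. The labels state no dose, time, mouse strain or age, nor whether the libraries came from separate cultures or animals, so p-values measure only the spread between these libraries. No group had neither an agent nor the solvent, and the groups with IL1b, with TNF and with TGFb1 alone are not labelled with DMSO, so the solvent is part of several comparisons.

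Libraries held 19796379 to 29276382 counts, and levels are given as CPM, the counts of a gene relative to its library's total after scaling by the trimmed mean of M-values. The lowest correlation between libraries of 1 group was 0.985 (log2 CPM). Fibroblast markers summed to between 23270 CPM with TGFb1 + TNF and 78210 CPM with TGFb1 + CHIR, mostly from Col1a1, Col1a2 and Col3a1. Epithelial and immune markers summed to at most 2.52 CPM in any group, endothelial markers to at most 23.2 CPM and mesothelial markers to at most 31.7 CPM, mostly from Kdr and Wt1. Among the defining markers of smooth muscle cells, Myocd (myocardin), Pln, Casq2 and Kcnmb1 averaged at most 0.261 CPM in each group. Hhip reached 48.6 CPM, Rbpms2 37.8 CPM, Sncg 5.08 CPM and Des 2.14 CPM in their highest groups. Pericyte markers summed to between 54.4 CPM with CHIR and 290.8 CPM with TGFb1 + TNF. In their highest groups Cspg4 averaged 272.5 CPM, Notch3 59.7 CPM, Mcam 18.05 CPM, Ndufa4l2 18.05 CPM and Rgs5 4.78 CPM. Kcnj8, Abcc9 and Cox4i2 averaged at most 0.199 CPM in each group, and Higd1b had 0 counts in every library. In bulk RNA, fewer cells that express a gene and less RNA of that gene per cell cannot be told apart.

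On GRCm38, Acta2 (ENSMUSG00000035783) lies on chromosome 19 from 34241090 to 34255590, Actg2 (ENSMUSG00000059430) on chromosome 6 from 83512905 to 83536265, and Tagln (ENSMUSG00000032085) on chromosome 9 from 45929619 to 45936058. Cnn1 (ENSMUSG00000001349) lies on chromosome 9 from 22099216 to 22109630, Lmod1 (ENSMUSG00000048096) on chromosome 1 from 135324807 to 135368065, and Myl9 (ENSMUSG00000067818) on chromosome 2 from 156775420 to 156781658. Mylk (ENSMUSG00000022836) lies on chromosome 16 from 34745210 to 35002420 and Myh11 (ENSMUSG00000018830) on chromosome 16 from 14194535 to 14291372. The values are sums over the exons of each gene, and they do not separate transcripts or untranslated regions.

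The promoters of 4 of these genes are shown because Acta2 and Cnn1 were higher with TGFb1 + DMSO than with DMSO and Myl9 and Lmod1 were lower, and because the CArG box, the site SRF binds, was found in some of them. RefSeq windows on GRCm38.p6, from 250 bases before to 50 bases after the annotated start, matched 5 of the 8 genes: Acta2 at chr19:34255324-34255623 (minus strand), Cnn1 at chr9:22099003-22099302 (plus), Myl9 at chr2:156775214-156775513 (plus), Lmod1 at chr1:135324563-135324862 (plus) and Mylk at chr16:34784700-34784999 (plus). The Mylk window starts a shorter transcript and lies 39740 bases inside the gene. Capitals mark a CArG box with at most 1 mismatch, on either strand.
Acta2: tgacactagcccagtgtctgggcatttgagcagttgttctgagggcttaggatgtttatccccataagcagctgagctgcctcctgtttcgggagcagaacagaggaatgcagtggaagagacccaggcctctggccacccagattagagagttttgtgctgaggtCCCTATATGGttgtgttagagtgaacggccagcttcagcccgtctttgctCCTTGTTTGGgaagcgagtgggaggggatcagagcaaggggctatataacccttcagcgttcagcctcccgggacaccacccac
Cnn1: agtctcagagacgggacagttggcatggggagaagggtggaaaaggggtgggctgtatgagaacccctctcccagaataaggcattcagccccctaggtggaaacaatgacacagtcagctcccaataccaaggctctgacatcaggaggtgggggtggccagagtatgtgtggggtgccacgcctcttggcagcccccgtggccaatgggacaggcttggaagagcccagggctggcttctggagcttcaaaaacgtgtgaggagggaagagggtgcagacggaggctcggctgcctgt
Myl9: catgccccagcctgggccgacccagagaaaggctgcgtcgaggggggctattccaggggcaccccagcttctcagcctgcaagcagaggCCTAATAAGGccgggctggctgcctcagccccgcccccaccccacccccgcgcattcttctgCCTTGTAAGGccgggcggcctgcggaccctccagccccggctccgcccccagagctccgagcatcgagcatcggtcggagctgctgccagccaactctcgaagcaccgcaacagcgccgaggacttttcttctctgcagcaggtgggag
Lmod1: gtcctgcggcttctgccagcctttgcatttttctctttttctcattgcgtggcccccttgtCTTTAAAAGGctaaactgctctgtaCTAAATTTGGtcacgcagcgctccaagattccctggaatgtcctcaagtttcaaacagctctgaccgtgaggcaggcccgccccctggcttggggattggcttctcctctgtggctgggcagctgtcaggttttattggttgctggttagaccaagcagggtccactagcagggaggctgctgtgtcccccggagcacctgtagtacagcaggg
Myl9 held 1 full CArG box at position -161 from the start and 1 with a single mismatch at -99. Acta2 held 2 with 1 mismatch each, at -84 and -34, as did Lmod1, at -189 and -164. Neither the Cnn1 nor the Mylk window held one. A full box was present in 1.63% of all 32851 RefSeq windows of 300 bases and one with at most 1 mismatch in 21.1%. The letters CAGAC, a core bound by SMAD proteins, occurred on either strand in the windows of Acta2, Cnn1 and Mylk and in 49.6% of all windows. GGAATG, a core bound by TEAD proteins, occurred in those of Acta2, Lmod1 and Mylk and in 14.7% of all windows.

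The levels of the 8 genes did not follow 1 pattern across the treatments. For each gene the 7 groups were put in order of their mean level. Of the 48 tests between neighbours in these orders, 32 passed at an adjusted p below 0.05. Over the same 19 pairs of groups, 55.1% of the tests of all genes passed. Those pairs are not neighbours in the order of every gene, so the shares are unlike and cannot be set against each other. Acta2, smooth muscle alpha-actin and the usual marker of myofibroblasts, was the most abundant in every group. Acta2 stood at 1751, 1821 and 1818 CPM in the TGFb1 + IL1b libraries and at 818, 940.3 and 946 CPM in the TGFb1 + TNF libraries. It had 1013, 1034 and 1008 CPM with TGFb1 + CHIR, 1705, 1870 and 1883 CPM with TGFb1 + DMSO and 2384, 2355 and 2438 CPM with TGFb1. With CHIR it had 624, 663 and 565 CPM, and with DMSO 1155, 1084 and 1102 CPM. No TGFb1 library overlapped any other group, and the CHIR libraries were below all others. TGFb1 + DMSO and TGFb1 + IL1b overlapped and were the only neighbours in the order of the 7 Acta2 levels that did not pass the test.

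Actg2 encodes smooth muscle gamma-actin, the enteric form. Actg2 stood at 494, 507 and 503 CPM with TGFb1 + IL1b and at 333, 357 and 328 CPM with TGFb1 + TNF. It had 293, 274 and 297 CPM with TGFb1 + CHIR, 379, 386 and 407 CPM with TGFb1 + DMSO and 512, 522 and 520.1 CPM with TGFb1. CHIR libraries held 125, 130.2 and 121 CPM and DMSO libraries 143, 144 and 128 CPM. Every Actg2 library with TGFb1 was above every library without it, which did not hold for Acta2. The TGFb1 and TGFb1 + IL1b groups were the only neighbours in its order that did not pass the test.

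Tagln (transgelin, or SM22-alpha) binds and bundles actin filaments. Tagln stood at 128, 137 and 123 CPM with TGFb1 + IL1b and at 48.2, 64.9 and 58.9 CPM with TGFb1 + TNF. It had 68.4, 67.7 and 73.8 CPM with TGFb1 + CHIR, 116, 122 and 119.8 CPM with TGFb1 + DMSO and 152, 154 and 163 CPM with TGFb1. CHIR gave 50.7, 53.5 and 47.4 CPM and DMSO 74.0, 70.4 and 64.0 CPM. The Tagln libraries of TGFb1, TGFb1 + IL1b and TGFb1 + DMSO were above those of the other 4 groups, which overlapped in part. The Tagln count is uncertain, because 62.4% of its exon bases lie under Gm48529, a gene on the opposite strand, and no source used here gives the strand setting of the counting. Gm48529 itself averaged between 17.0 CPM with TGFb1 + TNF and 44.1 CPM with TGFb1.

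Cnn1 (calponin 1) binds actin and slows the myosin cycle. Cnn1 stood at 142, 140.5 and 144 CPM with TGFb1 + IL1b and at 45.5, 54.7 and 54.4 CPM with TGFb1 + TNF. It had 137, 134 and 148 CPM with TGFb1 + CHIR, 132, 141 and 153 CPM with TGFb1 + DMSO and 211, 212 and 206 CPM with TGFb1. CHIR libraries had 41.0, 39.4 and 34.1 CPM and DMSO libraries 50.5, 47.4 and 42.0 CPM. The Cnn1 groups fell into 3 levels, TGFb1 on top, then TGFb1 + IL1b, TGFb1 + DMSO and TGFb1 + CHIR together, then TGFb1 + TNF beside DMSO and CHIR. Within the middle level no neighbours passed the test, nor did TGFb1 + TNF against DMSO.

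Lmod1 (leiomodin 1) starts new actin filaments in smooth muscle. Lmod1 stood at 23.1, 22.9 and 25.6 CPM with TGFb1 + IL1b and at 2.08, 4.41 and 3.35 CPM with TGFb1 + TNF. It had 19.1, 17.7 and 18.1 CPM with TGFb1 + CHIR, 29.4, 28.8 and 28.1 CPM with TGFb1 + DMSO and 45.4, 49.8 and 42.2 CPM with TGFb1. CHIR gave 43.8, 43.7 and 42.0 CPM and DMSO 77.3, 73.5 and 74.6 CPM. DMSO libraries were the highest and TGFb1 + TNF libraries the lowest for Lmod1, without overlap with any other group, and only TGFb1 and CHIR were neighbours that did not pass the test.

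Myl9 encodes the regulatory light chain of smooth muscle myosin, the protein that the kinase phosphorylates. Myl9 stood at 161, 167 and 155 CPM with TGFb1 + IL1b and at 29.9, 37.9 and 37.4 CPM with TGFb1 + TNF. It had 282, 288 and 288 CPM with TGFb1 + CHIR, 211, 237 and 254 CPM with TGFb1 + DMSO and 312, 326 and 321 CPM with TGFb1. CHIR libraries held 209, 222 and 207 CPM and DMSO libraries 338, 307 and 308 CPM. TGFb1 and DMSO, the top groups for Myl9, overlapped and did not pass the test, while the TGFb1 + TNF libraries lay far below every other library.

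Mylk encodes myosin light chain kinase itself. Mylk stood at 8.87, 5.62 and 6.76 CPM with TGFb1 + IL1b and at 1.19, 1.78 and 2.17 CPM with TGFb1 + TNF. It had 52.5, 46.5 and 64.1 CPM with TGFb1 + CHIR, 11.8, 11.1 and 13.1 CPM with TGFb1 + DMSO and 15.6, 14.3 and 18.1 CPM with TGFb1. CHIR gave 122, 138 and 124 CPM and DMSO 134, 134 and 134 CPM. Every Mylk library without TGFb1 was above every library with it, and among those with TGFb1 the 3 with CHIR stood above the rest. Neighbours that did not pass the test were CHIR and DMSO, and TGFb1 + DMSO and TGFb1.

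Myh11, the smooth muscle myosin heavy chain and the most specific smooth muscle marker of the 8, had few counts in 6 of the 7 groups, at most 41 in a library. Myh11 had 3, 3 and 2 counts in the TGFb1 + IL1b libraries, 1, 7 and 3 with TGFb1 + TNF and 5, 1 and 12 with TGFb1 + CHIR. It had 3, 6 and 15 counts with TGFb1 + DMSO and 10, 17 and 4 with TGFb1. CHIR libraries had 162, 179 and 160 counts and DMSO libraries 41, 22 and 10 counts. CHIR alone stood above every other group for Myh11, at 6.04, 6.81 and 7.79 CPM, and was the only group that passed the test against its neighbour in the order.

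**Figure D1:**
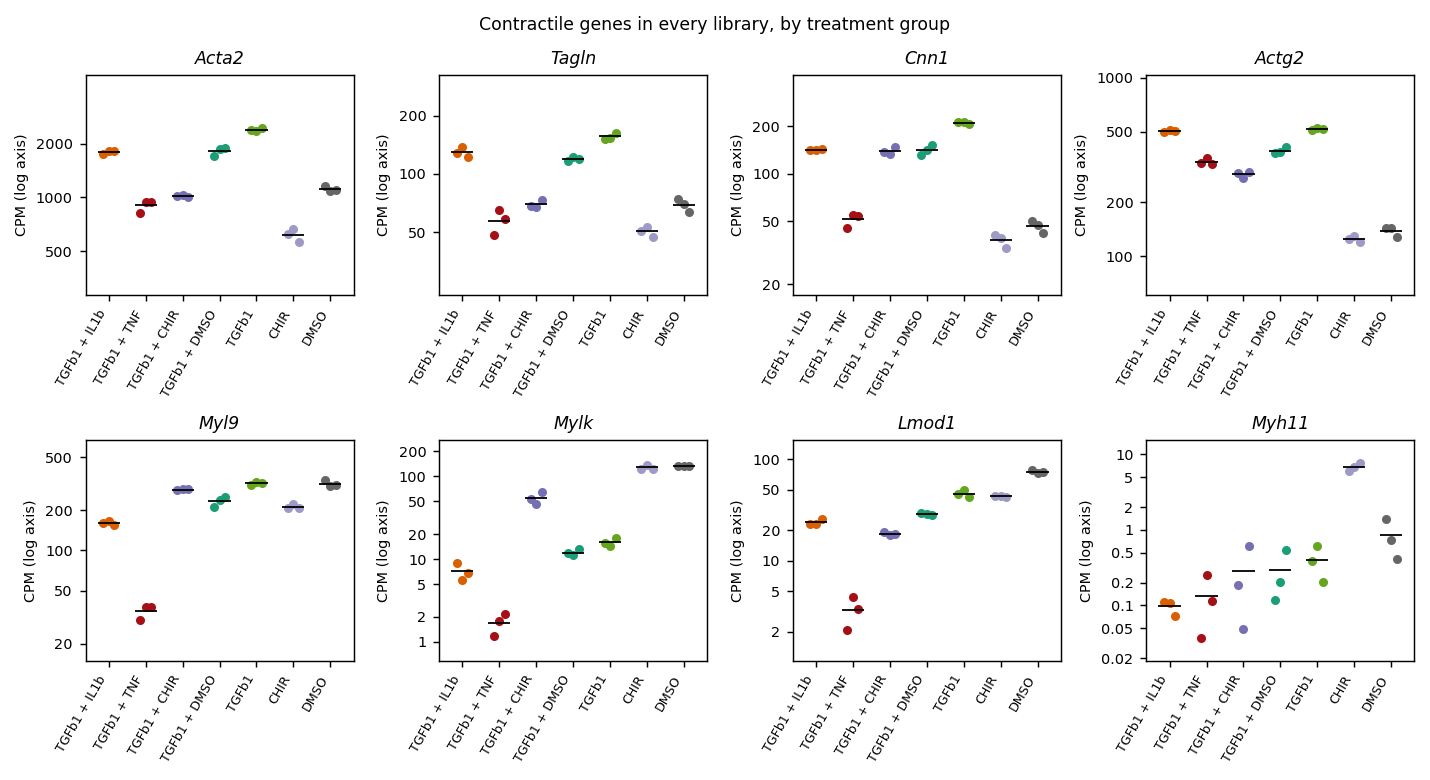
Scaled CPM (log axis, a range of its own in each panel) of the 8 contractile genes, with a point for each of 3 libraries per treatment group and a line at the mean. Acta2, Tagln, Cnn1 and Actg2 are highest with TGFb1, Mylk and Lmod1 are highest with DMSO, and Myh11 reaches 6.04 to 7.79 CPM with CHIR.

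Set against exon length, the order of the levels among the genes changed with TGFb1. With TGFb1, the level per kilobase of exon (CPM per kb, group mean) was 1089 for Acta2, 332.8 for Actg2, 275 for Myl9, 78.5 for Tagln, 76.5 for Cnn1, 11.6 for Lmod1 and 1.42 for Mylk. With DMSO it was 507 for Acta2, 273 for Myl9, 89.0 for Actg2, 35.0 for Tagln, 19.0 for Lmod1, 17.0 for Cnn1 and 11.9 for Mylk. Actg2 thus stood above Myl9 with TGFb1 and below it with DMSO. Myh11 was lowest in both groups, at 0.0525 CPM per kb with TGFb1 and 0.111 CPM per kb with DMSO.

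TGFb1 in the solvent split the group evenly, by the comparison of TGFb1 + DMSO against DMSO. Both actins and the actin-binding proteins Tagln and Cnn1 rose, and Lmod1, Myl9, Mylk and Myh11 fell. Of the 8 genes, 4 were higher and 4 lower at an adjusted p below 0.05 (edgeR quasi-likelihood test, Benjamini-Hochberg adjustment over 16197 genes), where 30.7% of all genes tested were higher and 31.3% lower. Cnn1 rose most (log2 fold change 1.60 ± 0.068, SE, adjusted p = 8.16e-21), a 3.04-fold change. Actg2 rose 2.82-fold (1.49 ± 0.045 on the log2 scale, adjusted p = 2.3e-33). The changes of Tagln (0.78 ± 0.069) and Acta2 (0.71 ± 0.049) were smaller, and those genes stood above 87.4% and 85.7% of all genes tested in fold change. The kinase gene and leiomodin went the other way. Mylk was 11.2-fold lower (-3.48 ± 0.13, adjusted p = 1.04e-14), with only 2.6% of genes lower still, and Lmod1 was 2.61-fold lower (-1.38 ± 0.082).

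Myl9 (-0.44 ± 0.06, adjusted p = 2.13e-07) fell little, and with TGFb1 without the solvent it did not pass the test against DMSO (0.0078 ± 0.06, adjusted p = 0.922, 95% interval -0.11 to 0.13). In that comparison, TGFb1 against DMSO, 4 genes were higher and 2 lower, where 31% of all genes were higher and 32.5% lower, and the rises were larger, at 2.17 ± 0.068 for Cnn1, 1.90 ± 0.045 for Actg2, 1.17 ± 0.069 for Tagln and 1.10 ± 0.049 for Acta2. Mylk was again the gene that fell most, at -3.08 ± 0.13. The fall of Myh11 with TGFb1 + DMSO (-1.54 ± 0.51, adjusted p = 0.00815) rests on few counts in overlapping groups and was no longer called without DMSO replicate 1 (-0.99) or without TGFb1 + DMSO replicate 1 (-1.19).

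The same division held when CHIR was present, except for Myl9. With TGFb1 + CHIR against CHIR, 5 genes were higher and 3 lower, where 33.8% of all genes were higher and 32.3% lower. Cnn1 (1.86 ± 0.07), Actg2 (1.20 ± 0.045), Acta2 (0.72 ± 0.049), Tagln (0.47 ± 0.074) and Myl9 (0.43 ± 0.061, adjusted p = 3.85e-07) rose. Lmod1 (-1.24 ± 0.09) and Mylk (-1.24 ± 0.11) fell, and so did Myh11 (-4.63 ± 0.48, adjusted p = 1.35e-11), CHIR alone being the only group in which it had more than 41 counts in a library.

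Markers of other cell types moved with TGFb1 too. The 8 smooth muscle markers summed to 26.9 to 32.6 CPM in TGFb1 + DMSO libraries, against 45.2 to 53.8 CPM in DMSO libraries, and the 9 pericyte markers to 164.5 to 172 CPM in TGFb1 + DMSO libraries, against 72.5 to 78.7 CPM in DMSO libraries. The members of each list did not move together. Of the smooth muscle markers, Hhip averaged 5.02 CPM with TGFb1 + DMSO and 33.2 CPM with DMSO, and Rbpms2 20.7 CPM with TGFb1 + DMSO and 8.45 CPM with DMSO. Of the pericyte markers, Cspg4 averaged 99.5 CPM with TGFb1 + DMSO and 7.48 CPM with DMSO, and Notch3 40.03 CPM with TGFb1 + DMSO and 59.7 CPM with DMSO. Pln and Casq2 had at most 3 counts in either group and Higd1b had 0. The part of these cells in the changes was not tested.

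**Figure D2:**
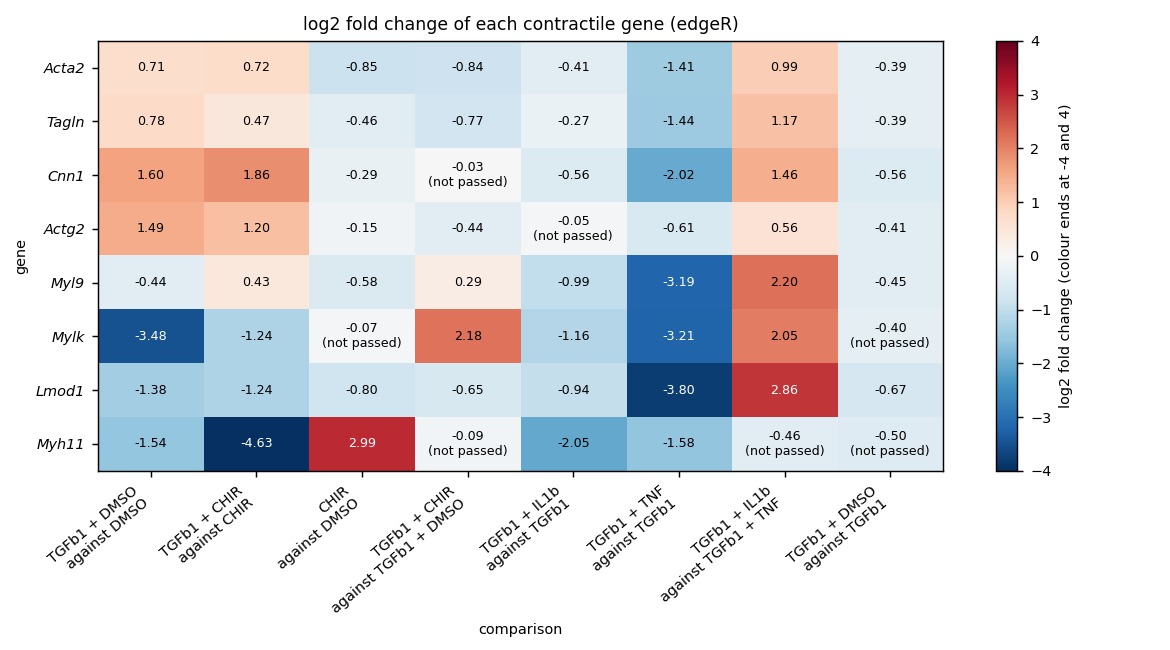
The log2 fold change of each contractile gene (rows) in 8 comparisons (columns), first-named group over second. Red is higher, blue is lower, and values without a test passed at adjusted p below 0.05 are marked. Acta2, Tagln, Cnn1 and Actg2 are higher in both TGFb1 comparisons on the left, where Mylk, Lmod1 and Myh11 are lower. The whole TGFb1 + TNF against TGFb1 column is lower, Myh11 at few counts.

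CHIR without TGFb1 lowered most of the contractile genes and raised Myh11. In CHIR against DMSO, 1 gene was higher and 6 were lower, where 22.1% of all genes were higher and 22.7% lower. Acta2 (-0.85 ± 0.049, adjusted p = 2.79e-16) and Lmod1 (-0.80 ± 0.081) fell most, to 1.80-fold and 1.74-fold lower levels. Myl9 (-0.58 ± 0.06), Tagln (-0.46 ± 0.073) and Cnn1 (-0.29 ± 0.073) fell less. The fall of Actg2 was small (-0.15 ± 0.046, adjusted p = 0.00698), its libraries overlapped, and the call was lost without DMSO replicate 2 (-0.12). The kinase gene stood apart. Mylk did not pass the test (-0.071 ± 0.11, adjusted p = 0.642, 95% interval -0.30 to 0.16).

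Myh11 was 7.97-fold higher with CHIR than with DMSO (2.99 ± 0.40, adjusted p = 2.24e-08), and 99.8% of all genes tested had a lower fold change. The value ranged from 2.69 to 3.55 when each library was left out in turn. Of its distinct 50-base stretches, 0.34% also occur in the nonmuscle myosin genes Myh9 or Myh10. Rgs5, a pericyte marker, averaged 4.78 CPM with CHIR and 1.09 CPM with DMSO, while the whole pericyte list summed to 51.9 to 56.3 CPM in CHIR libraries, against 72.5 to 78.7 CPM in DMSO libraries, and Higd1b had 0 counts. The smooth muscle list summed to 27.4 to 29.4 CPM with CHIR, against 45.2 to 53.8 CPM with DMSO, and its members did not move together. Hhip averaged 13.5 CPM with CHIR and 33.2 CPM with DMSO, Sncg 3.70 and 5.08 CPM in the same order, and Des 0.615 and 1.45 CPM. Rbpms2 went the other way, at 10.1 CPM with CHIR and 8.45 CPM with DMSO. Myocardin (Myocd) had 16 counts in the CHIR group and 8 in the DMSO group. The part of other cells in the Myh11 level was not tested.

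On top of TGFb1, CHIR lowered the actins, Tagln and Lmod1 and raised the kinase gene Mylk. In TGFb1 + CHIR against TGFb1 + DMSO, 2 genes were higher and 4 lower, where 20.8% of all genes were higher and 22.5% lower. Mylk was 4.53-fold higher (2.18 ± 0.13, adjusted p = 7.04e-11), and 98.6% of genes had a lower fold change. Acta2 (-0.84 ± 0.049), Tagln (-0.77 ± 0.07), Lmod1 (-0.65 ± 0.091) and Actg2 (-0.44 ± 0.044) fell. Cnn1 did not pass the test (-0.025 ± 0.064, adjusted p = 0.792, 95% interval -0.16 to 0.11), nor did Myh11 (adjusted p = 0.926). Myl9 was higher than with TGFb1 + DMSO (0.29 ± 0.06, adjusted p = 0.000205) but lower than with TGFb1 alone (-0.16 ± 0.06, adjusted p = 0.0332), and Cnn1 was lower than with TGFb1 alone (-0.59 ± 0.064). In TGFb1 + CHIR against TGFb1, 1 gene was higher and 6 lower, where 22.2% of all genes were higher and 23.4% lower.

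Other markers also moved with CHIR in the presence of TGFb1. The pericyte list summed to 77.1 to 82.9 CPM in TGFb1 + CHIR libraries, against 164.5 to 172 CPM in TGFb1 + DMSO libraries. Cspg4 averaged 18.8 CPM with TGFb1 + CHIR and 99.5 CPM with TGFb1 + DMSO, and Mcam 9.90 and 17.2 CPM in the same order. Notch3 averaged higher with CHIR, at 44.9 CPM with TGFb1 + CHIR and 40.03 CPM with TGFb1 + DMSO. The endothelial list summed to 22.0 to 23.9 CPM with TGFb1 + CHIR, against 4.70 to 6.44 CPM with TGFb1 + DMSO, mostly from Kdr, and its marker Cldn5 had 0 counts in both groups. The fibroblast list summed to 74420 to 82770 CPM with TGFb1 + CHIR, against 58200 to 61030 CPM with TGFb1 + DMSO, mostly from Col1a1, Col1a2 and Col3a1. These collagen genes, Pdgfra, Thy1 and Lum averaged higher with TGFb1 + CHIR. Dcn averaged 91.8 CPM with TGFb1 + CHIR and 205.8 CPM with TGFb1 + DMSO. Ly6a averaged 7.83 and 66.6 CPM in the same order, and Ly6c1 0.703 and 16.3 CPM. The smooth muscle list summed to 28.0 to 32.0 CPM with TGFb1 + CHIR, against 26.9 to 32.6 CPM with TGFb1 + DMSO, but its members moved in opposite directions. Rbpms2 averaged 25.0 CPM with TGFb1 + CHIR and 20.7 CPM with TGFb1 + DMSO. Hhip averaged 3.32 and 5.02 CPM in the same order, Sncg 0.494 and 2.20 CPM, and Des 0.825 and 1.63 CPM. The part of other cells in the changes was not tested.

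The effect of CHIR with TGFb1 was set against its effect without TGFb1 by the interaction, the difference between the log2 fold changes. It passed the test for 6 of the 8 genes, 3 positive and 3 negative, where 21% of all genes were positive and 20.3% negative. Mylk (2.25 ± 0.17, adjusted p = 2.52e-09), Myl9 (0.87 ± 0.085, adjusted p = 1.07e-09) and Cnn1 (0.26 ± 0.10, adjusted p = 0.03) were more positive with TGFb1. Myh11 (-3.09 ± 0.75, adjusted p = 0.000795), Tagln (-0.31 ± 0.10, adjusted p = 0.012) and Actg2 (-0.29 ± 0.063, adjusted p = 0.000128) were more negative. For Acta2 the difference was 0.014 ± 0.069 (adjusted p = 0.902, 95% interval -0.13 to 0.15), and did not pass the test, nor did Lmod1 (0.15 ± 0.12). The Cnn1 call was lost without any 1 of 6 libraries, CHIR replicate 3, DMSO replicates 1 and 2, TGFb1 + CHIR replicate 3 and TGFb1 + DMSO replicates 1 and 2, with values from 0.19 to 0.26.

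**Figure D3:**
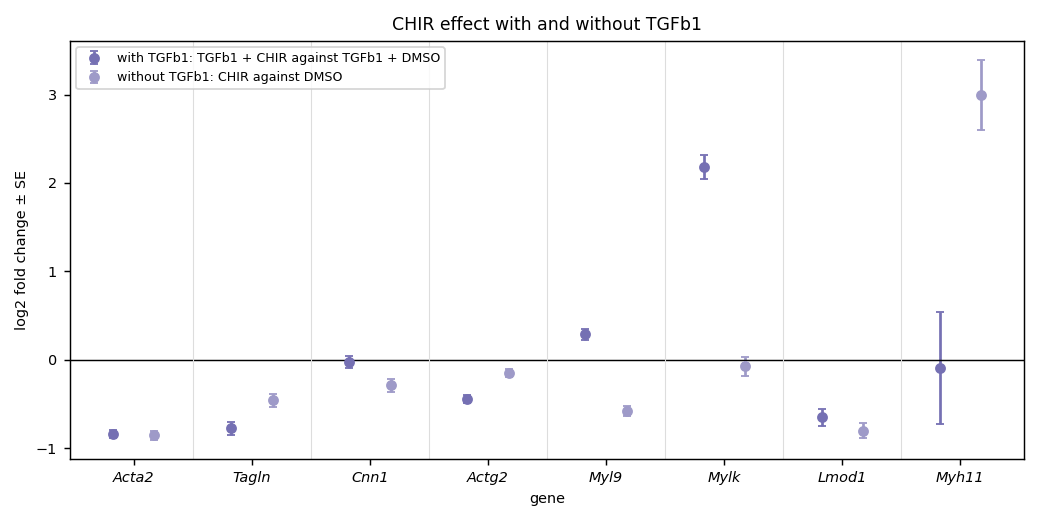
The log2 fold change (± SE) given by CHIR for each contractile gene, with TGFb1 (TGFb1 + CHIR against TGFb1 + DMSO, dark points) and without it (CHIR against DMSO, light points). The points of Acta2 coincide near -0.84, Mylk is at 2.18 with TGFb1 and -0.071 without it, and Myh11 is at 2.99 without TGFb1.

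With both agents, the 8 genes did not return as a group to their DMSO levels. In TGFb1 + CHIR against DMSO, 2 genes were higher and 5 lower, where 31.1% of all genes were higher and 32% lower. Cnn1 (1.58 ± 0.068) and Actg2 (1.05 ± 0.045) stayed above DMSO, Lmod1 (-2.04 ± 0.088) and Mylk (-1.31 ± 0.11) stayed below it, and Tagln did not pass the test (0.0073 ± 0.072, 95% interval -0.14 to 0.15). Acta2 (-0.13 ± 0.049, adjusted p = 0.0214) and Myl9 (-0.15 ± 0.06, adjusted p = 0.0314) were slightly lower. The Acta2 call was lost without DMSO replicate 1 (-0.10), DMSO replicate 3 (-0.12) or TGFb1 + CHIR replicate 1 (-0.12) or 3 (-0.12), and with limma voom (-0.13). That of Myl9 was lost without DMSO replicate 1 (-0.10) or any 1 TGFb1 + CHIR library (-0.15 to -0.14), and that of Myh11 (-1.64 ± 0.54) without DMSO replicate 1 (-1.08) or TGFb1 + CHIR replicate 1 (-1.38) or 2 (-1.18).

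TNF added to TGFb1 lowered the contractile genes, Myh11 only at few counts. The light chain, its kinase and leiomodin fell far more than the actins. In TGFb1 + TNF against TGFb1, 0 genes were higher and 8 lower, where 27.7% of all genes were higher and 28.8% lower, and the median log2 fold change was -1.80 over the 8 genes and -0.0040 over all genes. Lmod1 fell most, 13.9-fold (-3.80 ± 0.11, adjusted p = 5.68e-32), followed by Mylk, 9.25-fold (-3.21 ± 0.21), and Myl9, 9.10-fold (-3.19 ± 0.069, adjusted p = 4.31e-26). At most 1.64% of genes had a lower fold change than any of these 3. Cnn1, Tagln and the actins fell by less. Cnn1 was 4.06-fold lower (-2.02 ± 0.068), Tagln 2.72-fold (-1.44 ± 0.07) and Acta2 2.65-fold (-1.41 ± 0.05). Actg2 fell least (-0.61 ± 0.043, adjusted p = 1.25e-17). The antisense gene Gm48529 also fell (-1.38 ± 0.087). It passed the test in Tagln's direction in CHIR against DMSO (-0.74), TGFb1 + CHIR against TGFb1 + DMSO (-0.55) and TGFb1 + CHIR against CHIR (0.26). The same held in TGFb1 against DMSO (0.33), TGFb1 + DMSO against TGFb1 (-0.27) and TGFb1 + IL1b against TGFb1 + TNF (1.27). Gm48529 did not pass the test in TGFb1 + DMSO against DMSO (0.063 ± 0.082), where Tagln was higher, or in TGFb1 + IL1b against TGFb1 (-0.10 ± 0.081), where Tagln was lower. In TGFb1 + CHIR against DMSO, Gm48529 was lower (-0.48 ± 0.085), where Tagln did not pass the test. In TGFb1 + TNF against CHIR it went against Tagln, with Gm48529 lower (-0.30 ± 0.091) and Tagln higher (0.18 ± 0.074). In the interaction of CHIR and TGFb1, Gm48529 did not pass the test (0.20 ± 0.12), where Tagln was negative. The part of Gm48529 in the Tagln count was not tested.

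Myh11 passed the test with TNF at few counts and overlapping libraries (-1.58 ± 0.66, adjusted p = 0.0387). With only the TGFb1 and TGFb1 + TNF groups fitted, Myh11 had too few counts to be tested. Its call was lost without TGFb1 replicate 1 (-1.64) or 2 (-1.15) or TGFb1 + TNF replicate 1 (-1.16) or 3 (-1.48), and with DESeq2 (-1.60) and limma voom (-1.68). Against TGFb1 + DMSO, 0 genes were higher and 7 lower with TNF, where 27.8% of all genes were higher and 29.2% lower, with Lmod1 at -3.13 ± 0.11, Mylk at -2.81 ± 0.21, Myl9 at -2.74 ± 0.068 and Actg2 at -0.20 ± 0.043.

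TNF left most of the contractile genes below their level with DMSO alone. In TGFb1 + TNF against DMSO, 1 gene was higher and 6 lower, where 36% of all genes were higher and 37.5% lower. Mylk was 78.3-fold lower (-6.29 ± 0.17), Lmod1 22.8-fold (-4.51 ± 0.11) and Myl9 9.05-fold (-3.18 ± 0.069). Acta2 (-0.31 ± 0.049, adjusted p = 1.17e-06) and Tagln (-0.28 ± 0.072, adjusted p = 0.000871) were also lower, by less. With the counts of the muscle actin genes added together, the Acta2 difference was -0.011 and no longer called. Actg2 stayed 2.45-fold higher than with DMSO (1.29 ± 0.045, adjusted p = 5.47e-31). Cnn1 did not pass the test (0.14 ± 0.07, adjusted p = 0.0678), but passed it without DMSO replicate 1 (0.20) or TGFb1 + TNF replicate 1 (0.23).

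Other markers moved with TNF as well. The fibroblast markers summed to 22700 to 23780 CPM in TGFb1 + TNF libraries, against 62080 to 64360 CPM in TGFb1 libraries, mostly from Col1a1, Col1a2 and Col3a1. Of that list, Dcn went the other way, at 532.7 CPM with TGFb1 + TNF and 224.5 CPM with TGFb1. The smooth muscle list summed to 86.5 to 94.2 CPM with TGFb1 + TNF, against 30.6 to 36.5 CPM with TGFb1. Hhip alone averaged 48.6 CPM with TGFb1 + TNF and 6.41 CPM with TGFb1, and Myocd had 18 counts in the TGFb1 + TNF group, unevenly spread over its libraries (0 to 0.595 CPM), and 0 in the TGFb1 group. Rbpms2 averaged 37.8 CPM with TGFb1 + TNF and 22.5 CPM with TGFb1. Des was lower with TNF, at 1.06 CPM against 2.14 CPM with TGFb1, as was Sncg, at 1.71 CPM against 2.765 CPM. The pericyte list summed to 285 to 295.5 CPM with TGFb1 + TNF, against 179.7 to 197 CPM with TGFb1, mainly from Cspg4, with Higd1b at 0 counts and Kcnj8 and Abcc9 at 0 counts with TNF. Cspg4 averaged 272.5 CPM with TGFb1 + TNF and 113 CPM with TGFb1. Other pericyte markers were lower with TNF. Notch3 averaged 9.40 CPM with TGFb1 + TNF and 42.4 CPM with TGFb1, Mcam 6.41 and 18.05 CPM, and Ndufa4l2 2.245 and 14.6 CPM. The part of other cells in the changes was not tested.

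IL1b lowered 7 of the contractile genes relative to TGFb1 alone, Myh11 among them only at few counts. DMSO added to TGFb1 also lowered Acta2, Tagln, Cnn1, Myl9 and Lmod1, and it lowered Actg2, which did not pass the test with IL1b. In TGFb1 + IL1b against TGFb1, 0 genes were higher and 7 lower, where 17.2% of all genes were higher and 17.4% lower. Mylk (-1.16 ± 0.16, adjusted p = 9.39e-06), Myl9 (-0.99 ± 0.061, adjusted p = 5.28e-14) and Lmod1 (-0.94 ± 0.085) fell most among the genes with many counts. Cnn1 (-0.56 ± 0.063), Acta2 (-0.41 ± 0.049) and Tagln (-0.27 ± 0.067) fell by less. Actg2 did not pass the test (-0.048 ± 0.043, adjusted p = 0.431, 95% interval -0.13 to 0.039). Myh11 had at most 3 counts in an IL1b library (adjusted p = 0.0199), and its call was lost without TGFb1 replicate 2 (-1.61) or TGFb1 + IL1b replicate 3 (-1.88) and with limma voom (-1.84). With only the TGFb1 and TGFb1 + IL1b groups fitted, it had too few counts to be tested.

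The solvent comparison, TGFb1 + DMSO against TGFb1, stood out for how few genes of the whole table moved. Of all genes, 2.33% were higher and 3.8% lower, while 0 of the 8 contractile genes were higher and 6 lower. The genes called over the table numbered 993, and 646 without TGFb1 replicate 1. Lmod1 (-0.67 ± 0.084, adjusted p = 1.83e-07) and Cnn1 (-0.56 ± 0.063, adjusted p = 2e-07) fell most, followed by Myl9 (-0.45 ± 0.06), Actg2 (-0.41 ± 0.043), Acta2 (-0.39 ± 0.049, adjusted p = 1.07e-06) and Tagln (-0.39 ± 0.067). Mylk (-0.40 ± 0.15, adjusted p = 0.127) did not pass the test, with no overlap between its libraries, and neither did Myh11. Mylk passed without a filter on low counts (-0.40, adjusted p = 0.000825) and with only these groups fitted (-0.41, adjusted p = 0.0285). The 6 calls were made without any 1 of the 6 libraries too.

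Set directly against TGFb1 + DMSO, IL1b changed 4 of the 8 genes, and this comparison and that against TGFb1 share the IL1b libraries. In TGFb1 + IL1b against TGFb1 + DMSO, 1 gene was higher and 3 lower, where 19.6% of all genes were higher and 19.8% lower. Myl9 (-0.54 ± 0.061, adjusted p = 2.03e-08), Mylk (-0.76 ± 0.16, adjusted p = 0.000919) and Lmod1 (-0.27 ± 0.087, adjusted p = 0.0105) were lower. Actg2 was higher (0.36 ± 0.043, adjusted p = 9.86e-10). Acta2 (-0.018 ± 0.049, 95% interval -0.12 to 0.081) and Cnn1 (0.0005 ± 0.064, 95% interval -0.13 to 0.13) did not pass the test, nor did Tagln (0.12 ± 0.067). The labels do not say whether the IL1b stock held a solvent, and for Acta2, Tagln, Cnn1, Actg2 and Myh11 the call for IL1b depends on which TGFb1 group it is set against.

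**Figure D4:**
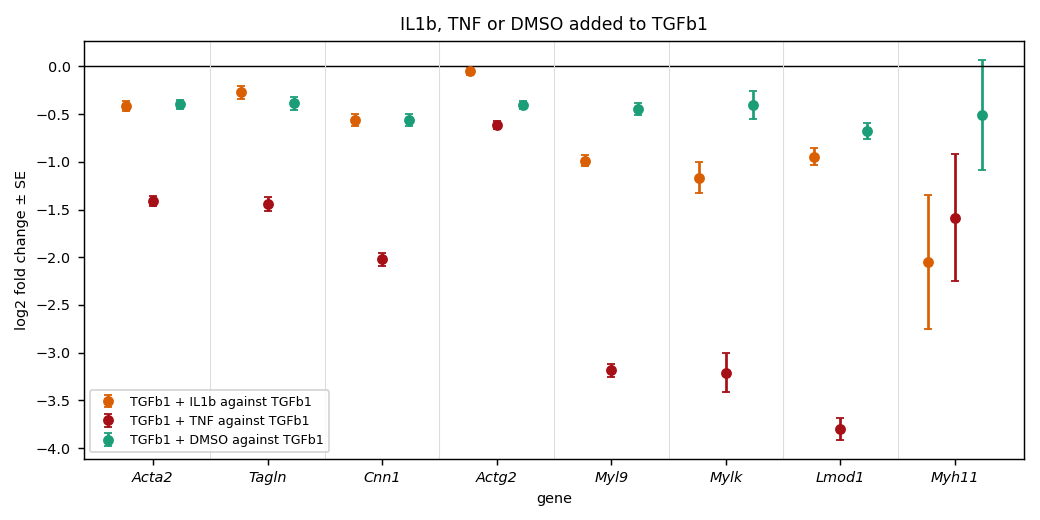
The log2 fold change (± SE) of each contractile gene when IL1b, TNF or DMSO was added to TGFb1, all against the same TGFb1 libraries. The IL1b and DMSO points lie close together for Acta2 (-0.41 and -0.39) and Cnn1 (-0.56 in both), and the TNF points of Lmod1, Mylk and Myl9 lie between -3.80 and -3.19.

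Between the cytokines, IL1b left more contractile gene RNA than TNF. In TGFb1 + IL1b against TGFb1 + TNF, 7 genes were higher and 0 lower, where 24.7% of all genes were higher and 22.8% lower. The differences were largest for Lmod1 (2.86 ± 0.12, adjusted p = 7.44e-26), Myl9 (2.20 ± 0.068, adjusted p = 1.19e-21) and Mylk (2.05 ± 0.23), and smallest for Actg2 (0.56 ± 0.043). Acta2 was 1.99-fold higher with IL1b. Myh11 did not pass the test. Relative to DMSO, TGFb1 + IL1b left 4 genes higher and 4 lower, where 33.9% of all genes were higher and 34% lower, with Actg2 at 1.85 ± 0.045, Cnn1 at 1.61 ± 0.068, Tagln at 0.90 ± 0.069 and Acta2 at 0.69 ± 0.049, and Mylk at -4.25 ± 0.14.

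The rest of the contractile pathway was read from 56 genes in 5 lists, of which 53 were tested. With TGFb1 + DMSO against DMSO, 21 of the 53 were higher and 24 lower, where 30.7% of all genes were higher and 31.3% lower. The median log2 fold change was 0.069 over the 53, against -0.021 over all genes. Of the 11 tested thin filament genes 8 were higher and 3 lower (median 0.56), and of the 10 tested regulators 0 were higher and 9 lower (median -0.24). The 13 genes of myosin light chain control and nonmuscle myosin split into 5 higher and 6 lower. The 15 anchoring and scaffold genes split into 7 higher and 6 lower, and of the 4 other actins 1 was higher and 0 lower. Csrp2, a LIM protein of smooth muscle, rose 13.0-fold (3.70 ± 0.064), Tagln2, a close relative of Tagln, 3.56-fold (1.83 ± 0.043) and Pdlim7, a scaffold of actin bundles, 3.26-fold (1.71 ± 0.052). Synpo2, an actin-binding protein of muscle, was 5.39-fold lower (-2.43 ± 0.16).

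SRF and its partners were lower with TGFb1 + DMSO than with DMSO, but not in the same way when CHIR was present. Srf averaged 55.8 CPM with TGFb1 + DMSO and 90.0 CPM with DMSO (-0.69 ± 0.058), and its partners Mrtfb (-0.69 ± 0.065) and Mrtfa (-0.22 ± 0.050) were lower too. With TGFb1 + CHIR against CHIR, 4 of the 10 regulators were higher and 6 lower, where 33.8% of all genes were higher and 32.3% lower. There Srf averaged 55.9 CPM with TGFb1 + CHIR and 35.4 CPM with CHIR (0.66 ± 0.063), Mrtfa was higher (0.19 ± 0.052) and Mrtfb lower (-0.96 ± 0.064). With CHIR against DMSO, Srf fell (-1.35 ± 0.061), as did Mrtfa (-0.42 ± 0.051), and Mrtfb rose (0.56 ± 0.062). In TGFb1 + CHIR against TGFb1 + DMSO, Srf (0.0029 ± 0.060) and Mrtfa did not pass the test and Mrtfb was higher (0.29 ± 0.066). Against TGFb1 alone, Srf was lower with TNF (-0.36 ± 0.060) and with IL1b (-0.30 ± 0.060). Myocd had too few counts to be tested, from 0 with TGFb1 to 18 with TGFb1 + TNF over a group, the last with 0 to 0.595 CPM in its libraries.

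CHIR without TGFb1 raised 11 and lowered 28 of the 53 pathway genes (median -0.19, against -0.014 over all genes), where 22.1% of all genes were higher and 22.7% lower, so the share higher was near that of all genes. The largest changes were in Ppp1r14a, an inhibitor of myosin phosphatase with few counts (-2.42 ± 0.71), Klf4, a factor known to repress smooth muscle genes (-2.15 ± 0.059), the gamma-actin gene Actg1 (-1.77 ± 0.63) and Fhl2, a cofactor of SRF (-1.76 ± 0.063). Actg1 is uncertain, since 37.4% of its distinct 50-base stretches also occur in other genes and it had 10 counts in the CHIR group and 41 in the DMSO group. With TGFb1, CHIR raised 9 and lowered 25 (median -0.12, against 0 over all genes), where 20.8% of all genes were higher and 22.5% lower, with the skeletal actin gene Acta1 (-1.36 ± 0.18), Synpo2 (-1.18 ± 0.21), desmin (Des, -0.98 ± 0.35) and the focal adhesion gene Tns1 (-0.95 ± 0.039) all lower. Of the distinct 50-base stretches of Acta1, 2.02% also occur in other genes. The interaction was largest for Fhl2 (1.99 ± 0.087), Srf (1.35 ± 0.086), Klf4 (1.27 ± 0.08) and Acta1 (-1.11 ± 0.28). With TGFb1 + CHIR against CHIR, 28 were higher and 19 lower (median 0.20, against 0.013 over all genes), where 33.8% of all genes were higher and 32.3% lower, so the share lower was near that of all genes. The largest changes there were those of Synpo2 (-3.48 ± 0.18), Csrp2 (3.35 ± 0.064), Tmod1, a cap of actin filament ends (-2.51 ± 0.29) and Pdlim7 (1.91 ± 0.053).

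TNF against TGFb1 alone lowered 11 and raised 3 of the 15 anchoring and scaffold genes (median -0.54, against -0.0040 over all genes), while the 11 thin filament genes split into 4 higher and 3 lower. Over all lists 12 were higher and 28 lower, where 27.7% of all genes were higher and 28.8% lower. Palld (palladin, an organiser of actin bundles) fell 2.93-fold (-1.55 ± 0.043), Acta1 fell (-1.61 ± 0.17), Ppp1r14a fell to 2 counts in the group (-4.29 ± 0.96), and Tmod1 rose (1.97 ± 0.33). IL1b against TGFb1 raised 6 and lowered 29 (median -0.18), where 17.2% of all genes were higher and 17.4% lower, with Ppp1r14a (-1.83 ± 0.71), Acta1 (-1.32 ± 0.16) and Tns1 (-0.75 ± 0.039) lower and Tmod1 higher (1.65 ± 0.34). Against TGFb1 + DMSO, IL1b left 15 higher and 14 lower (median -0.025), where 19.6% of all genes were higher and 19.8% lower. With the solvent, TGFb1 + DMSO against TGFb1, 0 were higher and 23 lower (median -0.13, against 0.0001 over all genes), where 2.33% of all genes were higher and 3.8% lower, with the cardiac actin gene Actc1 (-1.25 ± 0.35), Acta1 (-0.64 ± 0.16) and smoothelin (Smtn, -0.48 ± 0.046) among those lower. Between the cytokines, IL1b left 21 higher and 15 lower than TNF (median 0.077, against 0.013 over all genes), where 24.7% of all genes were higher and 22.8% lower, so the share lower was near that of all genes. Among those higher were Palld (0.87 ± 0.043), Myl6, a myosin light chain (0.85 ± 0.081), Synpo2 (0.75 ± 0.20) and Tns1 (0.73 ± 0.039).

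Across the 21 libraries, the contractile genes varied in 2 loose sets. Pearson's r of log2 CPM was 0.98 between Acta2 and Tagln, 0.85 between Acta2 and Cnn1 and 0.80 between Acta2 and Actg2. It was 0.91 between Myl9 and Lmod1 and 0.78 between Lmod1 and Mylk, but -0.75 between Mylk and Actg2 and 0.31 between Acta2 and Myl9. These values describe 7 treatments with 3 libraries each and share the scaling of each library.

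Likeness was ranked among 9948 other genes averaging 2 log2 CPM or more. Genes with provisional or clone-type names or no symbol were left out, Gm48529 among them. The levels most like those of Acta2 were Sqle (r = 0.97), Gpx7 (0.96), Emd (0.96), Adgrd1 (0.96) and Mvd (0.95). Sqle and Mvd encode enzymes of cholesterol synthesis. Among the genes ranked, Gpx7 was also the closest to Tagln (0.98), and the likeness of Gm48529 to Tagln was not tested. The closest were Sept5 to Actg2 (0.99), Egln1, a prolyl hydroxylase of the hypoxia response, to Cnn1 (0.97), and Pcolce, an enhancer of procollagen processing, to Lmod1 (0.97). Notch3, a receptor of vascular smooth muscle and a pericyte marker, was the closest to Myl9 (0.98). For Mylk it was Fam102a (0.99) and for Myh11 it was Ltbp1 (0.93), whose protein binds latent TGFb. Outside the CHIR group Myh11 had at most 41 counts in a library, which limits what its r shows.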

How the data were processed

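Raw counts per gene were deposited by the authors for 21 libraries, as 1 table of 52636 genes and 21 single tables equal to its columns. The submitters' processing notes name the builds GRCh38 and GRCm38 without a role, and no source used here gives the aligner, the counter or the strand setting. Symbols, positions and exon lengths came from GENCODE M21, which holds 52403 of the IDs. Groups came from the labels, and replicate numbers follow record order.

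Genes passing filterByExpr (minimum count 10, minimum total count 15), 16197 in all, were tested with edgeR 4.0.16 in R 4.3.3 by robust quasi-likelihood F-tests, with TMM factors of 0.963 to 1.05, 1 coefficient per group over all libraries, Benjamini-Hochberg adjustment over all genes tested and a threshold of 0.05. The libraries varied with a common biological coefficient of 0.0581. The fit was tested on simulated data. Correlations used log2 CPM with a prior count of 2, and shared sequence was counted in stretches of 50 bases.

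The 8 genes and all lists were chosen with earlier results of these data known. All 8 are named throughout, with the regulators Srf, Mrtfa, Mrtfb and Myocd, up to 4 pathway genes with the largest called fold change per comparison, the 5 genes most like Acta2 and the 1 most like each other gene. One gene that this rule selects is not reported here. Alternatives were DESeq2 1.42.0, limma voom 3.58.1, RLE factors, library size alone, no filter, 1 CPM in 3 libraries, leaving out mitochondrial and rRNA genes, fitting only the groups compared, the other TGFb1 group, muscle actins summed, and each library left out in turn.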

Additional observations from a re-analysis of the deposited data

Results flagged for a closer look

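The effect of CHIR differed between cells with TGFb1 and cells without it for 6 of the 8 genes, by the interaction in edgeR. Of all genes, 21% were positive in this test and 20.3% negative. The difference in log2 fold change was 2.25 ± 0.17 for Mylk (adjusted p = 2.52e-09), 0.87 ± 0.085 for Myl9 (adjusted p = 1.07e-09) and 0.26 ± 0.10 for Cnn1 (adjusted p = 0.03). The Cnn1 call was lost when certain single libraries were left out. The difference was -3.09 ± 0.75 for Myh11 (adjusted p = 0.000795), -0.31 ± 0.10 for Tagln (adjusted p = 0.012) and -0.29 ± 0.063 for Actg2 (adjusted p = 0.000128). For Mylk the CHIR effect was 2.18 with TGFb1 and -0.071 without it, and for Myl9 it was 0.29 with TGFb1 and -0.58 without it. For Tagln and Actg2 it was negative in both settings and larger with TGFb1.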

How the results depend on the processing

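No paired analysis was possible because the labels carry library numbers only and replicate numbers follow record order. Of the log2 fold changes of the 8 genes under the alternatives other than leaving out a library, 778 kept their direction and side of the threshold, 16 reversed, 9 lost and 5 gained the call. Most reversals were of values near 0. For Tagln in TGFb1 + CHIR against DMSO the value was 0.0073, against -0.0127 (DESeq2), -0.0135 (RLE factors), -0.1103 (library size alone), -0.0311 (1 CPM filter), -0.0137 (mitochondrial and rRNA genes left out) and -0.0054 (only the groups compared). For Acta2 in the interaction it was 0.0139, against -0.0063 (no filter), -0.0073 (1 CPM filter), -0.0058 (mitochondrial and rRNA genes left out) and -0.008 (muscle actins summed, which also gave 0.0615 for Acta2 in TGFb1 + CHIR against DMSO).

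The choice of TGFb1 group mattered more. With TGFb1 in place of TGFb1 + DMSO, Myl9 was at 0.0078 against DMSO and 2 of the 8 genes were lower there in place of 4, and Myl9 was at -0.1573 with TGFb1 + CHIR, where 1 gene was higher in place of 2. With TGFb1 + DMSO in place of TGFb1, IL1b left 1 gene higher and 3 lower in place of 0 and 7, with Tagln at 0.1153, Cnn1 at 0.0005 and Actg2 at 0.36. Without a filter, or without mitochondrial and rRNA genes, 2 genes were higher in place of 1 in TGFb1 + TNF against DMSO.

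With each library left out in turn, 585 log2 fold changes kept their call, 26 lost and 2 gained it, and 11 reversed. In TGFb1 + CHIR against DMSO 2 to 5 genes were lower and Tagln ranged from -0.0311 to 0.0556, and in TGFb1 + TNF against DMSO 1 to 2 genes were higher. The solvent comparison called 646 to 884 genes over the table. The interaction of Acta2 ranged from -0.044 to 0.0696, Cnn1 in TGFb1 + CHIR against TGFb1 + DMSO from -0.0745 to 0.0273, and Myh11 from -1.1791 to 0.7216 there and from -0.8904 to 0.3426 between IL1b and TNF. The cause was not tested. Myh11 could not be tested with only the groups compared in 4 comparisons, and its counts of at most 17 per library with TGFb1 limit every statement on it there.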
